A study of Mus musculus with 28 samples.

Results

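The mouse mitochondrial genome was represented in the count table by 37 genes whose symbols begin with mt-, out of 39152 gene symbols in all. They comprised 13 protein-coding genes, 2 ribosomal RNA genes (mt-Rnr1 and mt-Rnr2) and 22 transfer RNA genes, and they were picked by symbol, not by their values. Of the 22 transfer RNA genes, 15 had at least 1 count in some library and 7 had none in any of the 28 libraries. After the filter on low counts 22 of the 37 genes could be tested in the left ventricle (LV) and 23 in the right ventricle (RV), and the untested genes were all transfer RNAs.

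The libraries came from C57BL6 mice in which both alleles of Pkp2, the gene of the desmosomal protein plakophilin-2, were floxed. In the Pkp2-cKO mice a Cre recombinase driven by the cardiomyocyte αMyHC promoter was activated by tamoxifen, and these mice received the vehicle HBSS (cKO; 4 LV and 4 RV libraries). Further Cre-positive mice received a single retro-orbital dose of TN-401, an AAV9 vector carrying human PKP2, 1 week before tamoxifen, at 3E13 vg/kg (3E13; 4 LV and 2 RV libraries) or 6E13 vg/kg (6E13; 3 LV and 3 RV libraries). Cre-negative Pkp2 fl/fl littermates given HBSS were the WT group (5 LV and 3 RV libraries). The series title places the study at about 10 weeks. The study gives a single collection time after tamoxifen, which its survival records for vehicle-treated cKO mice do not reach. The age of each animal and the time at which each cKO heart was collected are not given in the sources used here, so a difference in collection time and the cKO state cannot be told apart. The same holds for treated hearts set against cKO. The 28 libraries came from 16 animals, 12 of which gave both ventricles.

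Mitochondrial DNA is a small circle that is transcribed on both strands into long precursor RNAs, from which most transfer RNAs are cut out as the punctuation between the neighbouring genes. Its protein-coding genes encode subunits of respiratory complexes I, III, IV and V, and its ribosomal and transfer RNAs serve the ribosomes inside the organelle. In cardiomyocytes, which are rich in mitochondria, these transcripts make up a large part of all RNA, and every protein needed to transcribe and process them is made from nuclear genes.

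Library totals ranged from 19364764 to 39381176 estimated counts. Mouse Pkp2 was at 44.1 to 61.5 CPM (counts scaled to a common library total) in cKO LVs, against 93.6 to 112 in WT LVs, and at 40.2 to 45.6 in cKO RVs, against 85.3 to 97.5 in WT RVs, and at 32.5 to 40.6 in 3E13 LVs and 33.7 to 43.0 in 6E13 LVs. These are counts of the whole gene, in which the floxed part is not separated, and they fit the labels. Summed cardiomyocyte markers (8 genes) were at 18436 to 33877 CPM in cKO LVs, against 35379 to 37701 in WT LVs, and at 17819 to 30688 in cKO RVs, against 30246 to 37367 in WT RVs. Summed fibroblast markers (7 genes) were at 2161 to 5500 CPM in cKO LVs, against 411 to 560 in WT LVs, and at 4058 to 9243 in cKO RVs, against 471 to 530 in WT RVs. Macrophage markers (6 of 7 in the table) summed to 213 to 834 CPM in cKO LVs, against 79.9 to 102.5 in WT LVs, and to 377 to 686 in cKO RVs, against 99.9 to 110.1 in WT RVs. In the edgeR test 5 of 8 cardiomyocyte markers were lower in cKO LVs and 7 in cKO RVs, while 6 of 7 fibroblast markers were higher in cKO LVs and 7 in cKO RVs, beside 35.8% and 37.4% of all genes called in either direction. The cardiomyocyte sum was 34551 to 38038 CPM in 3E13 LVs and 33891 to 38783 in 6E13 LVs, and 30849 to 32464 in 3E13 RVs and 31275 to 37155 in 6E13 RVs, overlapping WT in each case. Fibroblast sums of treated hearts lay above every WT library, at 964 to 1412 CPM in 3E13 LVs and 616 to 1325 in 6E13 LVs, and at 1960 to 2359 in 3E13 RVs and 827 to 2604 in 6E13 RVs. Macrophage sums did too, at 154 to 192 CPM in 3E13 LVs and 128 to 172 in 6E13 LVs, and at 295 to 303 in 3E13 RVs and 188 to 234 in 6E13 RVs. The part of these shifts in the results below was not tested. In whole-tissue libraries, fewer cardiomyocytes and less mitochondrial RNA per cardiomyocyte cannot be told apart.

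Some libraries stood apart from their groups. The 6E13 LV library of animal 645 held 4.80% of its mt- counts in ribosomal RNA, against 1.96% to 3.13% in the other 15 LV libraries. Its shares of all counts were also the highest of the LVs for mt-Nd1, mt-Nd2, mt-Nd4, mt-Nd5, mt-Nd6, mt-Atp8 and mt-Cytb. For mt-Co1 its share, 12.8%, was the lowest of the LVs outside cKO. The cKO RV libraries of animals 180 and 257 carried the most atrial muscle RNA, with Myl7, the atrial myosin light chain, at 95.5 and 61.5 CPM. The cKO RV library of animal 177 came next, with Myl7 at 3.30 CPM, against at most 0.547 CPM in every other library. The WT LV library of animal 636 held 1073 transfer RNA counts, against 249 to 351 in the other 4 WT LVs. The cKO LV library of animal 177 set the low end of its group. As deposited, mt- genes took 18.2% of its counts, against 23.5% to 26.7% in the other cKO LVs. Its cardiomyocyte markers summed to 18436 CPM, against 28746 to 33877 in those libraries. Counts of called genes against cKO or WT are given with these libraries and, where named, without those of animals 645, 180 and 257.

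The labels name the molecule as poly(A) RNA, while the library kit named in the same labels was a stranded total RNA kit with removal of ribosomal RNA. Poly(A) selection and removal of ribosomal RNA cannot be told apart from these labels. The ribosomal RNA values are therefore what library preparation left, and transfer RNA genes are short beside the inserts of such a library. Salmon's effective length was about 8 bases for the transfer RNA genes (7.96 for mt-Te), so no length-scaled level is given for them. Nuclear ribosomal RNA genes could show how far removal went, but of 7 looked for by symbol, 0 were in the count table.

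A segment of nuclear chromosome 1 carries an almost exact copy of part of the mitochondrial genome, and it shared reads with several of the genes. In GRCm39 the minus strand of chr1:24650616-24655269 matched mitochondrial positions 6390 to 11042 at 99.936% identity, with 2 mismatches and 1 gap base over 4654 aligned bases. It holds the table's pseudogenes Gm29216 (end of mt-Co1), Gm28661 (mt-Co2), Gm10925 (mt-Atp6), Gm28437 (mt-Co3), Gm28438 (mt-Nd3), Gm10222 (mt-Nd4l) and Gm28439 (mt-Nd4). The first 60 bases of mt-Co2 (mitochondrial positions 7013 to 7072, plus strand) and the aligned stretch of Gm28661 (chr1:24654587-24654646, minus strand) are shown because they were letter for letter the same, with the first codon in capitals.
mt-Co2: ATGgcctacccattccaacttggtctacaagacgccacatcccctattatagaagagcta
Gm28661: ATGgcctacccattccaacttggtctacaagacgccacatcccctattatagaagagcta
The window around 1 of the 2 mismatches, at the start of mt-Nd3 (mitochondrial positions 9431 to 9491, plus strand; chr1:24652168-24652228, minus strand), shows the kind of base that can separate the pair, with the differing base in capitals (T9461C, mitochondrial base first, counted along the mitochondrial genome).
mt-Nd3 window: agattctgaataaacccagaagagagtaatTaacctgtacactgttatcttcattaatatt
chromosome 1 copy: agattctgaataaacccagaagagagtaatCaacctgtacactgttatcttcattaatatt
Reads from the identical stretches can be assigned to either place, and nothing in the table separates them.

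How these reads were split differed widely between libraries, including libraries of 1 group. Of the counts of mt-Co2 plus Gm28661, the mitochondrial gene received between 2.17% and 90.7% over the 28 libraries, with a median of 18.3%. Even within the 5 WT LVs the share ran between 2.17% and 68.6%, and mt-Co3, a subunit of complex IV like mt-Co2, received 7.04% to 52.9% of its pair. Receiving 25.2% to 100% of its pair, mt-Nd4l also varied, while mt-Nd3 kept 86.7% to 98.3% and mt-Nd4, whose copy Gm28439 had no counts, kept all. For mt-Atp6, a subunit of complex V, the share was 67.8% to 100% with a median of 98.7%, and in the RV it was 67.8% to 96.7% in cKO, below the 99.98% or more in WT. The mt-Co1 pair, of which only the gene's end is copied, was nearly all counted at the mitochondrial gene (99.998% or more).

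**Figure D1:**
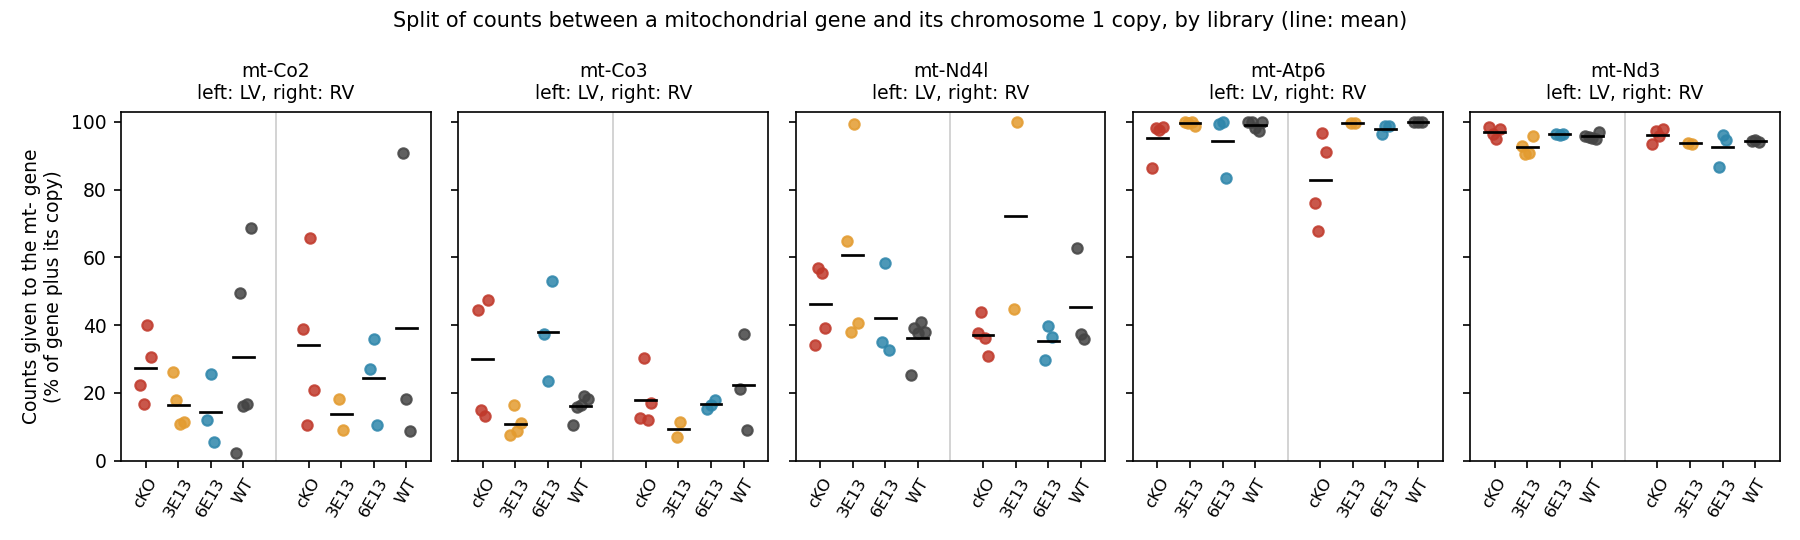
Share of the counts of a gene plus its chromosome 1 copy that was given to the mitochondrial gene, in percent (vertical axis), with 1 point per library, the group mean as a line, and cKO, 3E13, 6E13 and WT within LV (left) and RV (right). The points of mt-Co2 span 2.17% to 90.7% and overlap between all 4 conditions, whereas mt-Nd3 stays at 86.7% or more.

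Adding the copies narrowed the spread between replicates of mt-Co2 and mt-Co3 in all 8 groups, but not that of every gene. The coefficient of variation of mt-Co2 over the 5 WT LVs was 89.3% as deposited and 2.94% with the copy added, and that of mt-Co3 over the 4 cKO LVs was 59.6% as deposited and 12.3% with the copy added. For mt-Atp6 in 6E13 LVs it was wider with the copy added, at 24.1%, than as deposited, at 12.98%. The called counts below are given first for the deposited values and then with copies added, a choice made after the data were seen. Values of single genes are with copies added unless stated otherwise.

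Protein-coding genes made up nearly all of the mitochondrial counts, and their share of each library was lower in cKO than in WT hearts. With copies added, they took 20.4%, 30.3%, 26.6% and 28.6% of all counts in cKO LVs, 35.1% to 37.5% in 3E13 LVs, 35.7%, 36.5% and 41.9% in 6E13 LVs, and 39.3% to 42.0% in WT LVs. The cKO and WT ranges did not overlap, the 3E13 LVs lay wholly between them, and the 6E13 LV inside the WT range was that of animal 645. In the RV the share was 17.0%, 25.9%, 21.2% and 23.1% in cKO, 38.2% and 34.6% in 3E13, 32.6%, 38.5% and 38.5% in 6E13, and 42.1%, 43.8% and 42.5% in WT. Both treated RV groups lay above every cKO library and below every WT library.

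Ribosomal RNA took 0.458% to 1.81% of the counts of a library, and here the groups overlapped. Its share of all counts in the LV was 0.674% ± 0.165 in cKO (SD, n = 4), 0.790% ± 0.0832 in 3E13 (n = 4), 1.10% ± 0.614 in 6E13 (n = 3) and 0.859% ± 0.133 in WT (n = 5). In the RV it was 0.858% ± 0.361 in cKO (n = 4), 1.36% ± 0.142 in 3E13 (n = 2), 0.957% ± 0.0941 in 6E13 (n = 3) and 1.37% ± 0.170 in WT (n = 3). One cKO RV library, that of animal 180 with atrial RNA, reached 1.35%, inside the WT range of 1.23% to 1.56%.

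Within the mitochondrial counts the share of ribosomal RNA overlapped between cKO and WT in both ventricles. As deposited, ribosomal RNA was 2.52%, 3.13%, 2.73% and 2.88% of mt- counts in cKO LVs, 2.38% to 2.82% in 3E13 LVs, 2.50%, 2.23% and 4.80% in 6E13 LVs, and 1.96% to 2.87% in WT LVs. In the RV it was 5.13%, 5.84%, 2.59% and 4.01% in cKO, 4.45% and 4.19% in 3E13, 3.01%, 3.06% and 2.93% in 6E13, and 3.93%, 3.13% and 3.70% in WT. Here the cKO RV libraries alone spanned more than all the other RV libraries together. These class shares sum to the whole, so that a higher one lowers another, and no test was run on them.

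Transfer RNA was a trace class. Its counts per library were 61, 258, 148 and 136 in cKO LVs, 199 to 627 in 3E13 LVs, 299 to 434 in 6E13 LVs and 249 to 1073 in WT LVs. RV libraries held 108, 168, 122 and 106 in cKO, 309 and 494 in 3E13, 322, 564 and 474 in 6E13, and 370, 444 and 769 in WT. As a share of mt- counts, transfer RNA was 0.00228% ± 0.000872 in cKO LVs (SD, n = 4), against 0.00417% ± 0.00220 in WT LVs (n = 5). The RV values were 0.00305% ± 0.000607 in cKO (n = 4) and 0.00496% ± 0.00176 in WT (n = 3), with no overlap between the 2 groups.

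**Figure D2:**
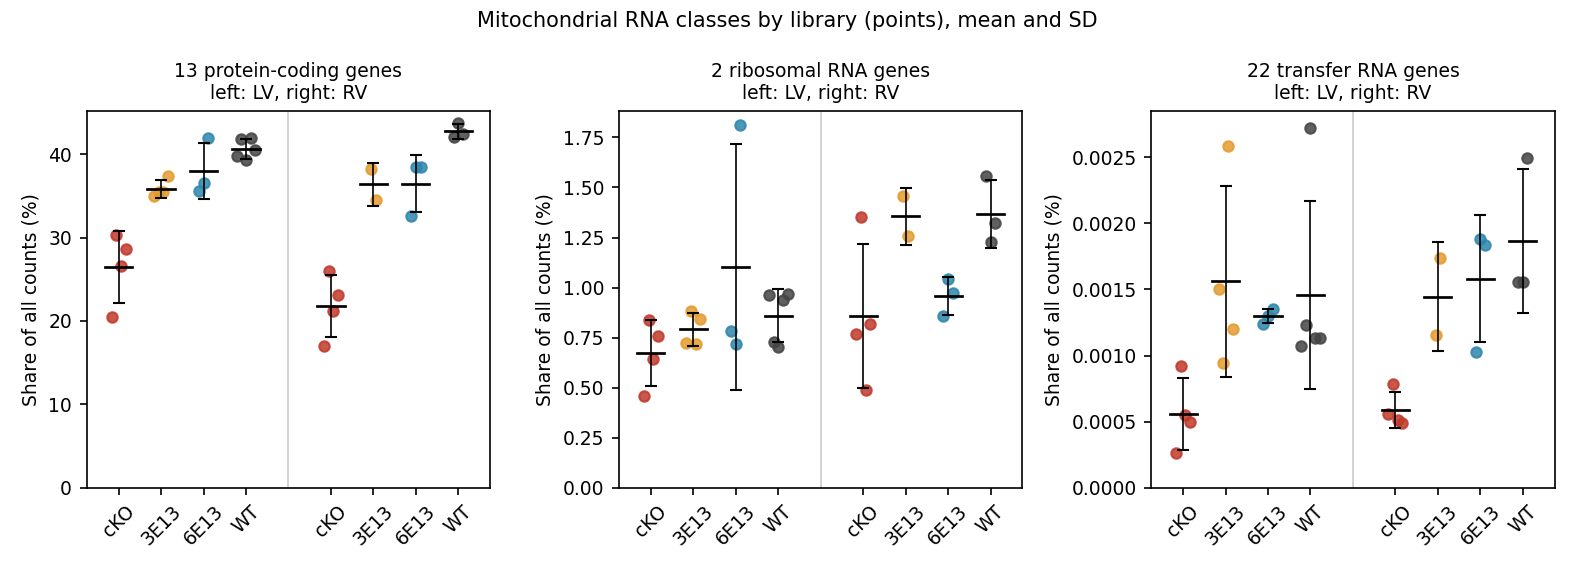
Share of all counts (percent, vertical axes, each from 0) taken by the protein-coding, ribosomal and transfer RNA genes, copies added, with 1 point per library and the mean and SD of cKO, 3E13, 6E13 and WT in LV (left) and RV (right). Protein-coding shares of cKO lie below those of every other group in both ventricles, while ribosomal RNA shares overlap and the highest LV value, 1.81%, is 6E13 animal 645.

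Which single genes differed between cKO and WT hearts was tested with edgeR over all genes. As deposited, 15 of the 22 tested mt- genes were lower in cKO LVs and none was higher, beside 16.1% of all 16410 tested genes that were lower and 35.8% called in either direction. In cKO RVs 19 of 23 were lower and none was higher, against 17.6% of 17307 genes that were lower and 37.4% called in either direction. The median log2 fold change of the tested mt- genes was −1.02 in the LV and −1.73 in the RV, beside 0.05 and 0.06 for all genes tested. With copies added the counts were 18 of 22 in the LV and 20 of 23 in the RV. Among all genes 16.4% and 17.6% were lower. Of the 22 mt- genes tested in both ventricles, 17 were called in both. The share of all genes called in both is not given, so this overlap cannot be read as particular to mt- genes. Leaving out 1 library at a time gave 13 to 18 genes in the LV and 18 to 20 in the RV as deposited, and without both cKO RV libraries with the most atrial RNA 19 of 23 were called with copies added (37% of all genes). Without the 6E13 LV library of animal 645, 20 of 22 were called in the LV with copies added (34% of all genes).

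Another scaling gave smaller differences in the same direction. With plain library size in place of TMM, the median over mt- genes was −0.60 in the LV and −1.11 in the RV, and the median over all genes was shifted to 0.52 and 0.71. On that scale 13 and 17 mt- genes were lower, and none was higher. The share of all genes called on that scale is not given, so these counts cannot be read as particular to mt- genes.

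All 13 protein-coding genes were lower in cKO hearts of both ventricles once the copies were added. Their log2 fold changes ran between −1.19 and −0.78 in the LV and between −1.92 and −1.41 in the RV. As deposited, 10 of 13 were called in the LV and 12 of 13 in the RV, and the missed genes were the unevenly split mt-Co2, mt-Co3 and mt-Nd4l in the LV and mt-Co2 in the RV.

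Among the complex IV genes, mt-Co1, the catalytic subunit, made up 7.97%, 11.6%, 10.3% and 10.9% of all counts in cKO LVs, 13.4% to 14.4% in 3E13 LVs, 14.1%, 15.8% and 12.8% in 6E13 LVs, and 15.2% to 16.6% in WT LVs. Every cKO LV was below every other LV, and only 1 6E13 library reached the WT range. Its log2 fold change in cKO against WT was −1.05 ± 0.22 (SE; edgeR adjusted p = 0.00189). In the RV, mt-Co1 stood at 6.74%, 9.10%, 8.63% and 8.33% in cKO, 13.4% and 12.7% in 3E13, 12.1%, 15.4% and 14.2% in 6E13, and 15.5%, 16.3% and 16.3% in WT. That gave −1.59 ± 0.27 (edgeR adjusted p = 0.000886), again without overlap between cKO and the other groups. mt-Co3 was at 2.12% to 2.83% of all counts in cKO LVs, against 4.10% to 4.42% in WT LVs, with log2 fold changes of −1.16 ± 0.18 in the LV and −1.79 ± 0.25 in the RV (edgeR adjusted p = 0.000237 and 0.000242). Without its copy, mt-Co3 in the LV had −0.33 ± 0.37 and an edgeR adjusted p of 0.530, and plain library size turned its sign.

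Complex I genes included the largest and the smallest differences. mt-Nd3 took 0.206%, 0.310%, 0.293% and 0.330% of all counts in cKO LVs, against 0.459% to 0.508% in WT LVs, with −1.19 ± 0.18 (edgeR adjusted p = 0.000206). In the RV it took 0.153%, 0.256%, 0.248% and 0.245% in cKO, against 0.512% to 0.636% in WT, with −1.92 ± 0.27 (edgeR adjusted p = 0.00022), the largest difference of the 13 there too. In contrast, mt-Nd5, the longest of the complex I genes, had −0.97 ± 0.26 in the LV and −1.41 ± 0.31 in the RV (edgeR adjusted p = 0.009 and 0.00426). mt-Nd4l, with its copy, had −0.98 ± 0.22 and −1.61 ± 0.21 (edgeR adjusted p = 0.00265 and 0.000173). The complex III gene mt-Cytb and the complex V genes mt-Atp6 and mt-Atp8 lay inside the range of the others, between −1.0 and −0.95 in the LV and between −1.62 and −1.44 in the RV.

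mt-Nd6 is the only protein-coding gene read from the opposite strand to the rest, and its end overlaps that of mt-Nd5 (mitochondrial positions 13552 to 14070, against 11742 to 13565 for mt-Nd5). It took 0.137%, 0.244%, 0.173% and 0.205% of all counts in cKO LVs, 0.203% to 0.231% in 3E13 LVs, 0.242%, 0.281% and 0.381% in 6E13 LVs, and 0.211% to 0.267% in WT LVs. Its −0.78 ± 0.24 was the smallest difference of the 13 genes in the LV (edgeR adjusted p = 0.0187), and cKO and WT overlapped on this share. In the RV, where mt-Nd6 took 0.138%, 0.177%, 0.129% and 0.152% in cKO against 0.400%, 0.297% and 0.271% in WT, the difference was −1.73 ± 0.21 (edgeR adjusted p = 0.000113). As a percentage of mt-Co1 counts it was 1.72%, 2.11%, 1.67% and 1.89% in cKO LVs, against 1.37%, 1.60%, 1.35%, 1.75% and 1.72% in WT LVs. The ratio of mt-Nd6 to mt-Co1 was 1.19-fold that of WT in cKO LVs (two-sided exact permutation test, p = 0.0794, where 0.0159 was the smallest possible) and 0.914-fold in cKO RVs (exact p = 0.629). With 4 cKO and 3 WT RV libraries the exact test could not go below 0.0571. With mt-Cytb in place of mt-Co1 the LV ratio was 1.16-fold that of WT (exact permutation p = 0.0317, not adjusted). For mt-Nd6 to mt-Co1 in the RV, leaving out WT animal 636 turned the sign of the log2 ratio of cKO to WT, to 0.058.

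Ribosomal RNA genes differed less clearly. mt-Rnr1, the small ribosomal RNA, took 0.305%, 0.522%, 0.425% and 0.489% of all counts in cKO LVs, against 0.474% to 0.646% in WT LVs, and the groups overlapped. mt-Rnr1 had −0.79 ± 0.32 in the LV (edgeR adjusted p = 0.0663), and mt-Rnr2, the large ribosomal RNA, had −0.71 ± 0.32 (edgeR adjusted p = 0.0948). Both were called there when the 6E13 LV library of animal 645 was left out of the fit (edgeR adjusted p = 0.0169 for mt-Rnr1 and 0.0461 for mt-Rnr2). All 4 conditions share 1 estimate of the spread, and the set of genes tested changed too. Which of these moved the calls was not tested. In the RV both were lower in cKO, mt-Rnr1 by −1.24 ± 0.35 (edgeR adjusted p = 0.0161) and mt-Rnr2 by −1.31 ± 0.29 (edgeR adjusted p = 0.0039). The RV values of mt-Rnr2 were 0.286%, 0.394%, 0.166% and 0.281% in cKO, against 0.527%, 0.404% and 0.449% in WT, so the groups came close without overlapping. For mt-Rnr1 they overlapped, at 0.483%, 0.960%, 0.323% and 0.536% in cKO, against 1.03%, 0.824% and 0.871% in WT. The overlapping cKO library was that of animal 180, with atrial RNA. Relative to mt-Co1, mt-Rnr2 was 1.23-fold that of WT in cKO LVs (exact permutation p = 0.206) and 1.16-fold in cKO RVs (exact p = 0.686). Over the 4 ratio tests no p adjusted by Benjamini-Hochberg was below 0.317.

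Pooled over the libraries, most transfer RNA counts came from genes on the strand of mt-Nd6. The 8 transfer RNA genes annotated on the minus strand were all counted and held 70.1% of the transfer RNA counts of all libraries. Of the 14 on the plus strand 7 were counted, and they held 29.9%. In single libraries the split could be nearer to even, with 189 minus-strand and 181 plus-strand counts in the WT RV of animal 636. mt-Te, the transfer RNA for glutamate, alone held 41.9%, and with mt-Tm, for methionine, the pair held 68.2%. Sequences of the 4 transfer RNA genes that were lower in cKO in both ventricles are shown from GRCm39, 5′ to 3′ on the gene's own strand, without capitals because no position in them is at issue.
mt-Te: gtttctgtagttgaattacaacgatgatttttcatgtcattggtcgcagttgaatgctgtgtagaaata
mt-Tm: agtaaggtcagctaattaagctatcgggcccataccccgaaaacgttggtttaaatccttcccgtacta
mt-Tn: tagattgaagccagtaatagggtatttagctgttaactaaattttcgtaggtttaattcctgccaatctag
mt-Ts1: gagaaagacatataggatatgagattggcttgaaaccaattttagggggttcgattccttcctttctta
mt-Te lies at mitochondrial positions 14071 to 14139 beside mt-Nd6, mt-Tm at 3845 to 3913, mt-Tn at 5089 to 5159 and mt-Ts1 at 6870 to 6938, and all but mt-Tm are on the minus strand.

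Of the 7 transfer RNA genes tested in the LV, 5 were lower in cKO (mt-Te, mt-Tm, mt-Tn, mt-Tq and mt-Ts1), and of the 8 tested in the RV 5 were lower (mt-Te, mt-Tm, mt-Tn, mt-Ts1 and mt-Ty). Among all genes tested with copies added, 16.4% were lower in cKO LVs and 17.6% in cKO RVs. mt-Te was at 1.48, 3.94, 2.69 and 2.04 CPM in cKO LVs, against 3.02, 5.20, 15.2, 5.5 and 5.3 CPM in WT LVs, with −1.83 ± 0.46 (edgeR adjusted p = 0.00595). In the RV mt-Te was at 2.22, 3.51, 2.28 and 2.43 CPM in cKO, against 5.09, 6.62 and 7.76 CPM in WT, with −1.94 ± 0.30 (edgeR adjusted p = 0.000478). The RV groups were apart, and in the LV 1 cKO library exceeded 1 WT library.

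mt-Tn, the asparagine transfer RNA, was at 0.296, 1.15, 0.672 and 0.873 CPM in cKO LVs, against 1.60 to 3.20 CPM in WT LVs, with −1.84 ± 0.46 (edgeR adjusted p = 0.00574). In the RV it was at 0.103, 0.187, 0.506 and 0.413 CPM in cKO, against 1.01, 1.75 and 3.48 CPM in WT, with −3.39 ± 0.58 (edgeR adjusted p = 0.000834), the largest difference of any tested mt- gene. mt-Ts1, a serine transfer RNA, was at 0.0716 to 0.448 CPM in cKO LVs, against 0.554 to 1.57 CPM in WT LVs, with −2.77 ± 0.53 in the LV and −1.85 ± 0.55 in the RV (edgeR adjusted p = 0.00103 and 0.0199). Groups were apart for both genes in both ventricles, although the lowest values stand for as few as 2 counts.

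mt-Tm had −1.49 ± 0.49 in the LV and −2.70 ± 0.39 in the RV (edgeR adjusted p = 0.0278 and 0.000281). mt-Tq, for glutamine, had −2.72 ± 0.71 in the LV, where 1 cKO library had 0 counts, and −1.46 ± 0.87 in the RV (edgeR adjusted p = 0.00761 and 0.213). mt-Ty, for tyrosine, had −1.45 ± 0.68 in the LV and −2.44 ± 0.63 in the RV (edgeR adjusted p = 0.11 and 0.0099). Not called in either ventricle was mt-Tv, at −0.59 ± 1.00 and −0.92 ± 1.04, and mt-Tc, tested in the RV alone, had −2.55 ± 1.08 (edgeR adjusted p = 0.0845).

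**Figure D3:**
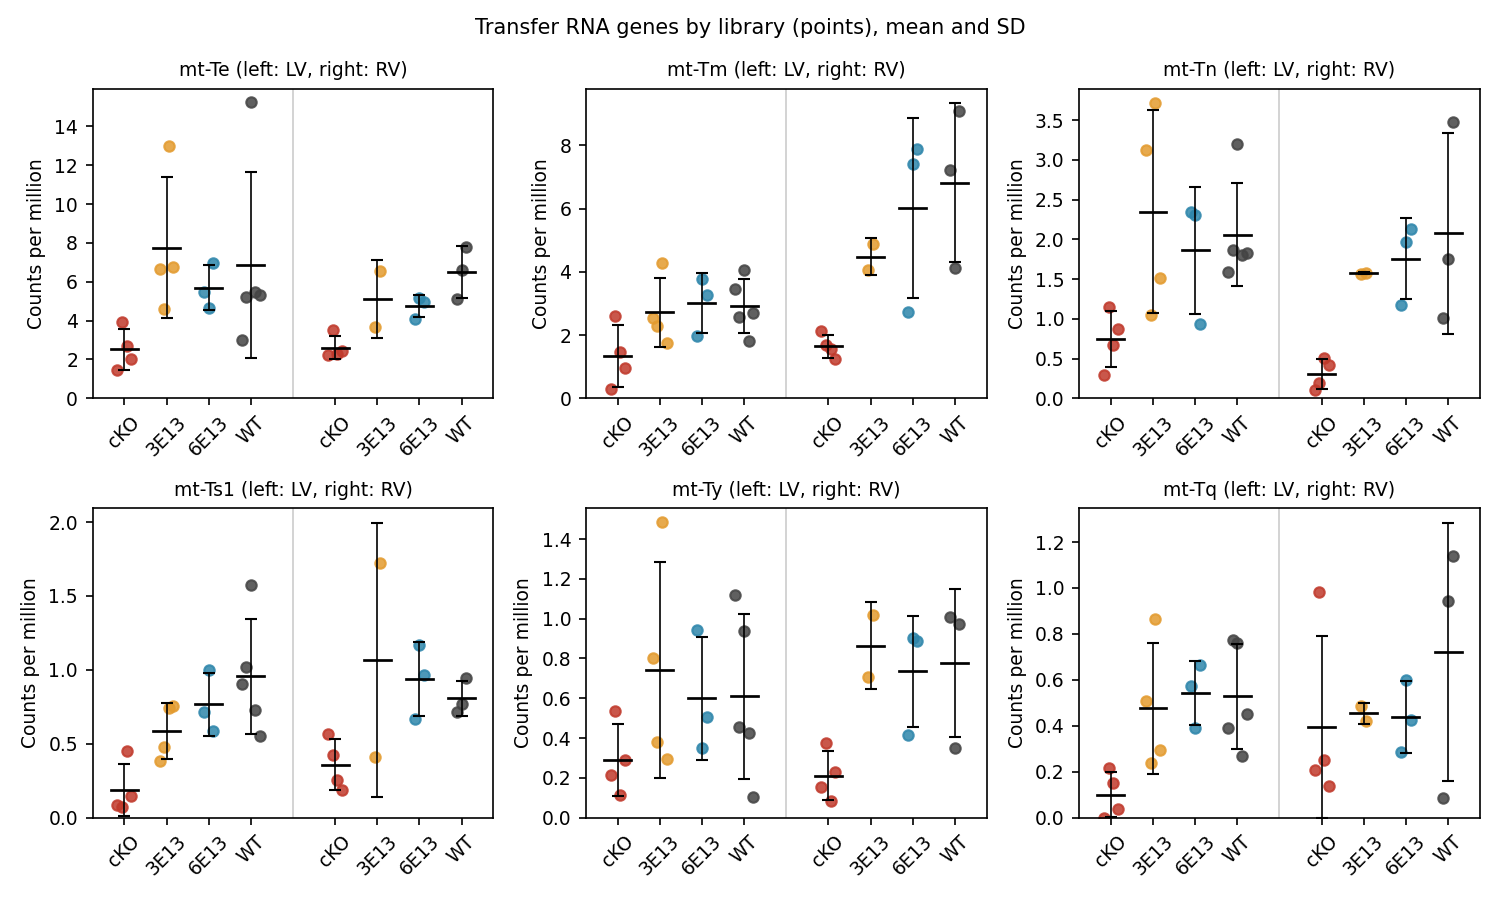
CPM of 6 transfer RNA genes (vertical axes, each from 0), with 1 point per library and the mean and SD of cKO, 3E13, 6E13 and WT in LV (left) and RV (right); SD bars are cut at 0. For mt-Tn the cKO points lie below all WT points in both ventricles, and the highest mt-Te value, 15.2, is WT LV animal 636.

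Whether single genes departed from the mitochondrial total was tested by scaling each library to its mt- counts. On that scale most genes are called, because nuclear genes are set against a mitochondrial total that differed between the groups: 74.1% of genes in the LV and 80.2% in the RV for cKO against WT as deposited. With copies added, 3 mt- genes were called in the LV, mt-Nd6 higher by 0.25 ± 0.10 and mt-Tq and mt-Ts1 lower by −1.80 ± 0.69 and −1.72 ± 0.56 (edgeR adjusted p = 0.0382, 0.0268 and 0.011), beside 74.8% of all genes that were higher and 0.927% that were lower. In the RV 3 were called, all lower: mt-Nd3 at −0.35 ± 0.13, mt-Tm at −1.03 ± 0.42 and mt-Tn at −1.80 ± 0.58 (edgeR adjusted p = 0.0261, 0.0358 and 0.0121), beside 79.5% of all genes that were higher and 0.601% that were lower. As deposited the called genes were mt-Co3, mt-Tq and mt-Ts1 in the LV and mt-Tm and mt-Tn in the RV, and leaving out single libraries gave 1 to 5 in the LV and 1 to 3 in the RV.

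The same scale was used for the treated groups. In 3E13 LVs mt-Te, mt-Tn and mt-Tq were higher than in cKO by 1.21 ± 0.44, 1.28 ± 0.48 and 1.83 ± 0.72 with copies added (edgeR adjusted p = 0.0288, 0.0316 and 0.0396), beside 0.439% of all genes that were higher and 57.6% that were lower. In 6E13 LVs mt-Tq and mt-Ts1 were higher by 1.91 ± 0.75 and 1.5 ± 0.61 (edgeR adjusted p = 0.039 and 0.0446), beside 0.683% higher and 58.3% lower. In 3E13 RVs mt-Nd3 was higher by 0.46 ± 0.15 and mt-Tn by 1.62 ± 0.64 (edgeR adjusted p = 0.0191 and 0.0443), beside 0.249% higher and 55.3% lower. In 6E13 RVs mt-Tm and mt-Tn were higher by 1.05 ± 0.42 and 1.77 ± 0.58 (edgeR adjusted p = 0.0402 and 0.017), and mt-Rnr1 and mt-Rnr2 were lower, at −0.57 ± 0.22 and −0.51 ± 0.21 (edgeR adjusted p = 0.0324 and 0.0412), beside 0.526% of all genes that were higher and 66.9% that were lower. As deposited 4 and 2 mt- genes were called in 3E13 and 6E13 LVs (52.9% and 57.2% of all genes) and 3 and 3 in 3E13 and 6E13 RVs (52.4% and 66.9% of all genes). Leaving out single libraries gave 1 to 5 and 0 to 2 in the LV, and 0 to 4 and 0 to 3 in the RV.

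**Figure D4:**
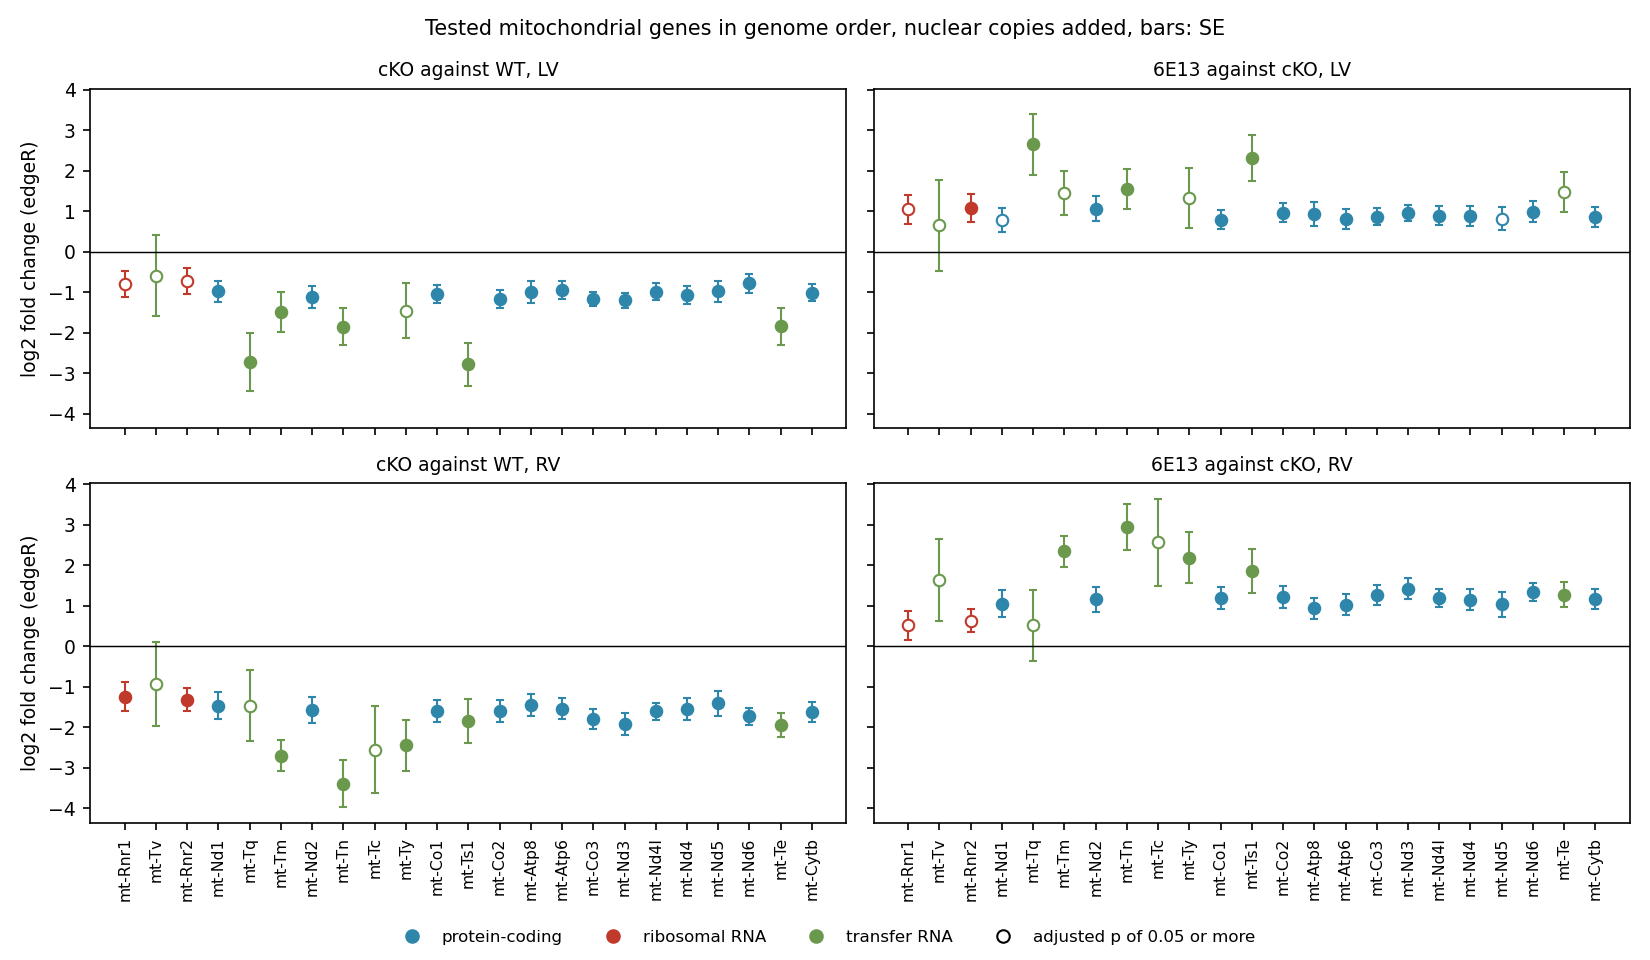
Log2 fold change with its SE (edgeR, copies added; vertical axis) of the tested mt- genes in genome order, for cKO against WT (left) and 6E13 against cKO (right), in LV (top) and RV (bottom). Filled points passed an adjusted p of 0.05; protein-coding genes lie between −1.19 and −0.78 for cKO against WT in the LV and between −1.92 and −1.41 in the RV, and transfer RNA genes scatter more widely.

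The treated groups were set against cKO, and both doses share the cKO libraries with each other and with the comparison of cKO and WT. Since the collection time of each cKO heart is not given, TN-401 and a difference in collection time cannot be told apart here. In 6E13 LVs 12 of 22 mt- genes were higher than in cKO as deposited and none was lower, against 8.65% of all genes that were higher and 16.8% called in either direction. With copies added 15 were higher (8.81% of all genes, and 17% in either direction), among them 11 of 13 protein-coding genes at 0.80 to 1.07. mt-Co1 had 0.80 ± 0.24 (edgeR adjusted p = 0.0356), mt-Co2 0.97 ± 0.23 (edgeR adjusted p = 0.0122) and mt-Nd6 1.00 ± 0.26 (edgeR adjusted p = 0.0195). This count rested on animal 645. Without that LV library 2 mt- genes were called as deposited and 3 with copies added (mt-Co3, mt-Nd3 and mt-Ts1; 6.89% of all genes), and the median over mt- genes was 0.64 in place of 0.97. Left out singly, cKO animals 257 and 264 gave 6 and 7 genes as deposited, and WT animals 626, 637 and 647 gave 7 each. An edgeR fit of the cKO and 6E13 LVs alone called 0, with 10 at an unadjusted p below 0.05. Here and below, the share of all genes called is not given for fits of 2 conditions alone. Nor is it given for counts as deposited with a single library left out. Such counts can therefore not be read as particular to mt- genes.

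In 3E13 LVs 6 of 22 mt- genes were higher than in cKO as deposited and none was lower, against 5.52% of all genes that were higher and 11.8% called in either direction. With copies added 10 were higher (5.58% of all genes): mt-Co1, mt-Co2, mt-Co3, mt-Nd3, mt-Nd4 and mt-Nd4l at 0.73 to 0.85, and mt-Te, mt-Tn, mt-Tq and mt-Ts1 at 1.86 to 2.41. Here too single libraries decided the count as deposited. It was 11 without cKO animal 180, 2 without cKO animal 264, 3 without 3E13 animal 181, and 1 without 3E13 animal 252 or 253, and 11 with DESeq2 in place of edgeR. With copies added, 9 were called without the 6E13 library of animal 645 (9.77% of all genes). An edgeR fit of the cKO and 3E13 LVs alone called 0, with 8 at an unadjusted p below 0.05.

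In 6E13 RVs 16 of 23 mt- genes were higher than in cKO as deposited and none was lower, against 11.2% of all genes that were higher and 22.1% called in either direction. With copies added all 13 protein-coding genes were higher, at 0.94 to 1.43, as were mt-Te, mt-Tm, mt-Tn, mt-Ts1 and mt-Ty at 1.28 to 2.95. Ribosomal RNA was not called, with 0.52 ± 0.35 for mt-Rnr1 and 0.64 ± 0.29 for mt-Rnr2 (edgeR adjusted p = 0.331 and 0.140). The count as deposited was 9 without cKO animal 257, 10 without cKO animal 264, 8 without 6E13 animal 631 and 6 without 6E13 animal 645. With both cKO libraries with the most atrial RNA left out it was 19 with copies added (24.3% of all genes).

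In 3E13 RVs, with 2 libraries, 9 of 23 mt- genes were higher than in cKO as deposited and none was lower, against 4.77% of all genes that were higher and 8.6% called in either direction. With copies added 12 were higher (4.78% of all genes, and 8.61% in either direction), among them mt-Rnr2 at 1.14 ± 0.32 (edgeR adjusted p = 0.0474), while mt-Co1 had 1.03 ± 0.30 and an edgeR adjusted p of 0.0566. Without 3E13 animal 181 or 253 edgeR called 0 as deposited (13 and 15 at an unadjusted p below 0.05), without cKO animal 264 it was 4, without 6E13 animal 631 it was 5, and without cKO animal 180 it was 17, the count that DESeq2 gave with all libraries. An edgeR fit of the cKO and 3E13 RVs alone called 0, with 15 at an unadjusted p below 0.05. With both cKO libraries with the most atrial RNA left out, 16 were called with copies added (13.2% of all genes).

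Against WT, and between the doses, edgeR called no mt- gene at an adjusted p below 0.05 in either ventricle. At an unadjusted p below 0.05 as deposited, 2 genes passed for 3E13 against WT in the LV and 2 in the RV, 1 for 6E13 against WT in the LV and 0 in the RV, and 1 for 6E13 against 3E13 in each ventricle. DESeq2 called 1 for 3E13 against WT in the RV and 1 for 6E13 against 3E13 in the LV. Among all genes, 2.5% were called for 3E13 against WT and 0.0853% for 6E13 against WT in the LV, 7.38% and 0.872% in the RV, and 0.0122% and 0.0404% for 6E13 against 3E13 in the LV and RV. With copies added these shares were 2.43% and 0.0671% in the LV, 7.38% and 0.815% in the RV, and 0.0122% and 0.0405% between the doses. A fit of the 2 conditions alone called 3 mt- genes for 3E13 against WT in the LV and 1 in the RV. Medians over the tested mt- genes were −0.31 for 3E13 against WT and −0.13 for 6E13 against WT in the LV, and −0.45 for both in the RV. A missed threshold with 2 to 5 libraries does not show that the levels were the same.

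The order of the genes by level per length was nearly the same in every condition. On the scale of CPM per kb of gene length with copies added, mt-Co1 was highest and mt-Nd6 lowest of the protein-coding genes in all 8 groups. In cKO LVs mt-Co1 was at 65904 ± 10056 and mt-Nd6 at 3657 ± 877 (SD, n = 4), an 18.02-fold range, against 101132 ± 3832 and 4684 ± 569 in WT LVs (n = 5), a 21.6-fold range. mt-Co3, mt-Co2 and mt-Atp6 followed mt-Co1 in WT LVs at 54570 ± 1632, 45402 ± 1336 and 38450 ± 2035, each apart from its neighbours by more than their SDs. Further down, mt-Nd1 (28070 ± 2535) and mt-Cytb (27394 ± 1556) did not differ beyond their spread, nor did mt-Atp8 and mt-Nd4l (18336 ± 2015 and 17939 ± 1852) or mt-Nd2, mt-Nd5 and mt-Nd3 (15243 ± 1653, 14673 ± 981 and 13953 ± 531). Relative to mt-Co1, mt-Nd6 was at 5.55% in cKO LVs, 4.73% in 3E13 LVs, 6.30% in 6E13 LVs and 4.63% in WT LVs. The 6E13 value leaned on animal 645: in counts, mt-Nd6 was 2.97% of mt-Co1 there, against 1.71% and 1.78% in the other 6E13 LVs. The folds per length depend on the length used. With the deposited TPM, which divides by the effective length and holds no copies, the mean log2 ratio of mt-Nd6 to mt-Co1 was −3.03 in cKO LVs and −3.32 in WT LVs, a smaller gap, and mt-Nd6 was not the lowest in every library.

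The ribosomal RNAs, as library preparation left them, lay near the low end of that order, with mt-Rnr2 below mt-Nd6. mt-Rnr1 was at 4554 ± 1003 CPM per kb in cKO LVs (n = 4), against 5905 ± 794 in WT LVs (n = 5), and mt-Rnr2 at 1513 ± 442 against 1866 ± 383. Counts of mt-Rnr1 were 1.31 to 2.44 times those of mt-Rnr2 over the 28 libraries, and the range in cKO LVs (1.65 to 1.98) lay within that in WT LVs (1.72 to 2.11) except at its low end.

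**Figure D5:**
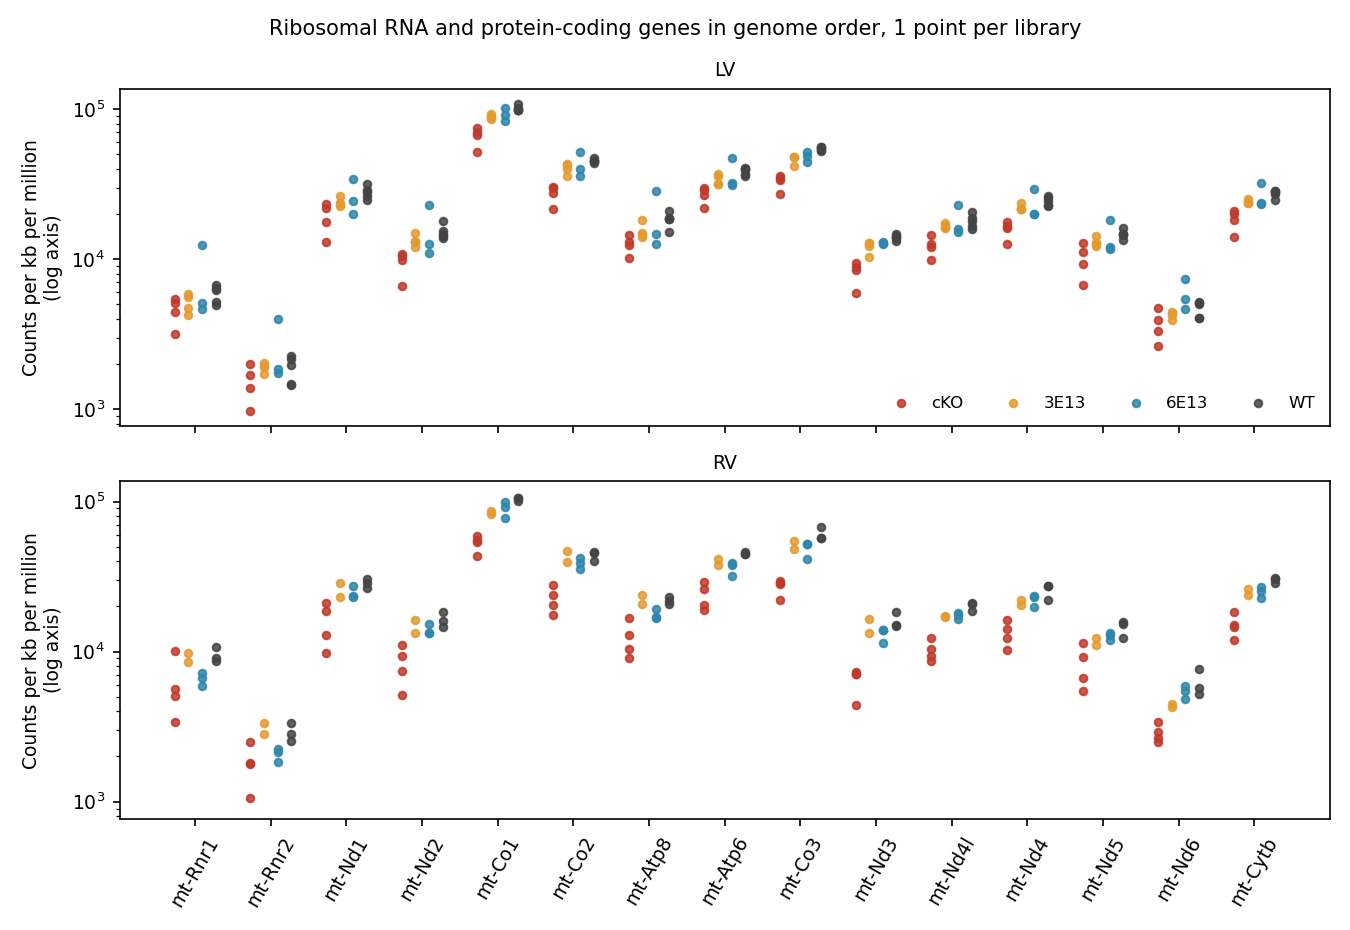
CPM per kb of gene length (log axis), copies added, of the 2 ribosomal RNA and 13 protein-coding genes in genome order, with 1 point per library, for LV (top) and RV (bottom). mt-Co1 is highest and mt-Rnr2 lowest throughout, and the cKO points lie lowest for most protein-coding genes. The 6E13 LV point above the others for mt-Rnr1, mt-Rnr2 and most protein-coding genes, though not mt-Co1, mt-Co3 and mt-Nd3, is animal 645.

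The ventricles were compared within the 12 animals that gave both, with the animal as a block. In cKO hearts 3 mt- genes were lower in the RV than in the LV as deposited: mt-Atp6 at −0.59 ± 0.12, mt-Nd3 at −0.54 ± 0.11 and mt-Cytb at −0.48 ± 0.12 (edgeR adjusted p = 0.023, 0.0225 and 0.0421), against 2.19% of all 17981 genes that were lower and 4.08% called in either direction. Ribosomal RNA did not follow, with 0.14 ± 0.26 for mt-Rnr1 and 0.03 ± 0.25 for mt-Rnr2 (edgeR adjusted p = 0.855 and 0.969). Without the replicate block by animal edgeR called 0 (6 at an unadjusted p below 0.05), and with copies added and the block 6 were called. They were mt-Nd3 at −0.53 ± 0.10 and mt-Co1, mt-Co2, mt-Co3, mt-Cytb and mt-Nd4l at −0.49 to −0.46 (edgeR adjusted p = 0.014 for mt-Nd3 and at most 0.0454 for the others), while mt-Atp6, whose split did not overlap between cKO and WT RVs, had −0.38 ± 0.13 with its copy and was not called (edgeR adjusted p = 0.119). As deposited and without animals 180 and 257, whose RV libraries carried the most atrial RNA, 1 was called. Left out singly, animal 177 gave 5, animals 180 and 264 gave 0 each (11 and 10 at an unadjusted p below 0.05) and animal 257 gave 1. For the fits without the block, with copies added or with animals left out, the share of all genes called is not given. Such counts can therefore not be read as particular to mt- genes. In WT hearts edgeR called 0 (3 at an unadjusted p below 0.05, with 0.00556% of all genes called). The difference between the cKO effects in RV and LV was called for 0 mt- genes (9 at an unadjusted p below 0.05, with 0.0111% of all genes called), of which mt-Atp6 at −0.87 ± 0.19 and mt-Nd3 at −0.78 ± 0.17 had an edgeR adjusted p of 0.176 each as deposited. With copies added mt-Atp6 had −0.63 ± 0.20 and mt-Nd3 −0.79 ± 0.15 (edgeR adjusted p = 0.296 and 0.114).

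Nuclear genes that serve mitochondrial DNA and RNA were lower in cKO hearts in part. Of 10 genes for mitochondrial transcription, 7 were lower and none higher in cKO LVs, and 6 were lower in cKO RVs, beside the 16.1% and 17.6% of all genes given above. These fold changes are on the TMM scale, on which the median of all genes lay lower than with plain library size by the shift given above. Polrmt, the mitochondrial RNA polymerase, had −0.69 ± 0.12 in the LV and −0.73 ± 0.16 in the RV (edgeR adjusted p = 0.000437 and 0.00395), while in plain CPM it was at 17.9 ± 2.62 in cKO and 20.9 ± 1.64 in WT LVs, and at 18.1 ± 3.03 in cKO and 19.1 ± 2.92 in WT RVs (SD). Tfam, which packages and opens mitochondrial DNA, had −0.59 ± 0.12 in the LV and −0.50 ± 0.20 in the RV, where it was not called (edgeR adjusted p = 0.00146 and 0.0769). In plain CPM Tfam was at 16.8 ± 1.21 in cKO and 18.6 ± 1.92 in WT LVs, and at 17.01 ± 2.93 in cKO and 15.6 ± 1.12 in WT RVs, where the direction was thus turned round. Tfb1m, a methyltransferase of the small ribosomal RNA, had −1.19 ± 0.23 and −1.70 ± 0.26 (edgeR adjusted p = 0.00101 and 0.000457), and plain CPM was lower too, at 2.70 in cKO against 4.45 in WT LVs and 2.14 in cKO against 4.27 in WT RVs (means).

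Of 19 genes for processing, stability and decay of mitochondrial RNA, 12 were lower in cKO LVs and 13 in cKO RVs, and none was higher. Lrpprc, which stabilises mitochondrial messenger RNAs, had −0.90 ± 0.15 in the LV and −1.48 ± 0.12 in the RV (edgeR adjusted p = 0.000335 and 1.28e-05), and in plain CPM averaged 107 in cKO against 149.6 in WT LVs and 88.2 in cKO against 158 in WT RVs. Fastk had −0.94 ± 0.11 and −1.18 ± 0.16 (edgeR adjusted p = 1.97e-05 and 0.000205), and Supv3l1, a helicase of the RNA degrading complex, had −0.83 ± 0.10 and −1.03 ± 0.17 (edgeR adjusted p = 2.9e-05 and 0.00061). Of 11 genes for transfer RNA modification 3 were lower in the LV and 2 in the RV, beside 16.1% and 17.6% of all genes, with Mto1 at −0.61 ± 0.12 in the LV and −1.15 ± 0.14 in the RV (edgeR adjusted p = 0.00147 and 0.000126). Plain CPM is not given for Fastk, Supv3l1 and Mto1. For replication and upkeep of the genome, 4 of 11 were lower and 1, the nuclease and helicase Dna2, was higher in cKO LVs at 1.39 ± 0.41 (edgeR adjusted p = 0.0154), and 5 of 11 were lower in cKO RVs.

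Under 6E13 some of these genes were higher than in cKO and none was lower. They were 4 of the 10 transcription genes and 8 of the 19 processing genes in the LV, and 6 and 11 in the RV, beside 8.65% and 11.2% of all genes that were higher in the LV and RV. Lrpprc had 0.76 ± 0.16 in 6E13 LVs and 1.10 ± 0.12 in 6E13 RVs relative to cKO (edgeR adjusted p = 0.00734 and 0.000271). Under 3E13 the counts were 1 and 7 in the LV, and 3 and 9 in the RV, beside 5.52% and 4.77% of all genes. As a list of RNAs without a poly(A) tail, 10 nuclear genes were followed beside the mitochondrial ones: 3 were higher in cKO LVs (Rmrp at 0.44 ± 0.12, Snora73a at 0.67 ± 0.24 and Snora73b at 0.78 ± 0.19) and 3 were lower in cKO RVs (Rny1, Rnu11 and Rnu12, at −1.5 ± 0.37, −1.29 ± 0.30 and −0.81 ± 0.26), with no gene called in both. Beside 35.8% and 37.4% of all genes called in either direction, this share was no higher. These fold changes too are on the TMM scale. In plain CPM, Rnu12 was at 40.4 ± 17.9 in cKO and 43.5 ± 16.3 in WT RVs (SD). Rny1 was at 12.9 ± 2.28 in cKO and 22.9 ± 13.7 in WT RVs, and Rnu11 at 6.07 ± 1.94 and 9.22 ± 4.62. Rmrp, not called in the RV, was in plain CPM at 459 ± 128 in cKO and 228 ± 55.5 in WT RVs, without overlap.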

How the data were processed

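RNA from the left and right ventricles was sequenced as paired 2 × 50 base reads, 28 libraries in all. The authors trimmed reads with fastp, quantified them with Salmon 1.8.0 against GENCODE M30 (GRCm39) with sequence, GC and position bias correction, and deposited estimated counts (expected counts), TPM and effective length per gene. The Salmon library-type setting is not given in the sources used here. The study's own tests left mitochondrial genes out and used log2(TPM + 1), so the deposited expected counts were rounded and tested with edgeR 4.0.16 (R 4.3.3) by the quasi-likelihood method: filterByExpr, TMM scaling, 1 fit per ventricle with the 4 conditions, Benjamini-Hochberg adjustment over all genes, a threshold of 0.05, and SE as the log2 fold change divided by the root of F. DESeq2 1.42.0 and limma 3.58.1 on log2(TPM + 1) were alternatives. Shares were computed from unrounded counts, of which 23.4% of the values were not whole, and the row without a gene name (0.000352% to 0.000971% of counts) was left out.

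Library totals of 19364764 to 39381176 counts set the precision, which is low for transfer RNA (61 to 1073 counts a library). Nuclear copies were found with BLAST 2.17.0 (at least 95% identity over 100 bases or more), and copies of at least 99% identity over 1000 bases or more were added to their gene as an alternative chosen after the data were seen. Gene positions came from GRCm39 and GENCODE vM39. Groups followed the sample labels. RV and LV were compared with the animal as a block, because same-numbered libraries came from 1 animal, and their deviations from group means correlated at 0.0507 to 0.593 (median 0.225, 12 animals, 15109 genes). The 38 pairs of libraries within groups differed by more than sampling noise (chi-square of 17.5 or more per gene). Each library is 1 ventricle of 1 animal, as the labels number them. The fit was checked on simulated data with known changes.

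The mt- genes were described as a set and by class, and not all of them singly. Nuclear genes of mitochondrial function came from lists of mitochondrial transcription, replication, RNA processing and transfer RNA modification genes. Within each of these lists, the named genes were among those of smallest edgeR p for cKO against WT in the LV. Other nuclear genes were named as copies, as cell type markers, as a check of the labels (Pkp2) or as RNAs without a poly(A) tail. Values of the genes picked by smallest p are therefore not typical of their lists, and Lrpprc under 6E13 was set against the same cKO libraries. The choice to describe mt- genes, and the lists, were made with earlier results of these data known. Class shares carry no test, and the 4 ratio tests were two-sided exact permutation tests over libraries. Alternatives covered scaling, the low-count filter, the conditions fitted, the tool, the copies and each library left out.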

Additional observations from a re-analysis of the deposited data

Results flagged for a closer look

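The WT LV library of animal 636 stood apart in its transfer RNA. There, transfer RNA made up 0.00272% of all counts, against 0.00107% to 0.00123% in the other 4 WT LVs, and 0.00809% of mt- counts, against 0.00309% to 0.00333%. The gap to the nearest other library was large for the range of the group, by a criterion that chance meets in about 1 in 20 groups, and 2 of 52 group values tested met it. mt-Te alone gave 600 of the 1073 transfer RNA counts of that library.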

How the results depend on the processing

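Over the single mt- genes tested, 2718 of 3150 alternative values kept their direction and side of the threshold, 312 lost the call, 99 gained it and 21 turned sign; the causes were not tested unless named. For limma, DESeq2, no filter, 2 conditions alone and single libraries left out, the share of all genes called is not given. These counts can therefore not be read as particular to mt- genes. For cKO against WT limma called 7 genes in the LV and 9 in the RV, and leaving out single libraries gave 13 to 18 and 18 to 20. For 3E13 against cKO in the LV the count was 3 with no low-count filter, 0 with only both conditions fitted, 11 with DESeq2 and 10 with copies added, and 1 to 11 with a library left out. For 6E13 against cKO in the LV it was 5 with no filter, 0 with only both conditions and 2 with limma, and 2 to 17 with a library left out. In the RV, 3E13 against cKO gave 0, 17 and 5 (only both conditions, DESeq2, limma) and 0 to 17 with a library left out, and 6E13 against cKO gave 5 with limma and 6 to 20 with a library left out. For 3E13 against WT, only both conditions gave 3 in the LV and 1 in the RV, DESeq2 gave 1 in the RV, and leaving out a library gave 0 to 1 in the LV; for 6E13 against 3E13 in the LV DESeq2 gave 1.

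On the scale of mt- counts, no filter gave 2 (3E13, LV), 0 (6E13, LV) and 1 for each of the 3 RV comparisons, and only both conditions gave the same counts. With a library left out these counts were 1 to 5, 1 to 5 and 0 to 2 in the LV (cKO against WT, 3E13 and 6E13 against cKO), and 1 to 3, 0 to 4 and 0 to 3 in the RV. RV against LV in cKO gave 6 with copies added, 0 with no replicate block and 1 without animals 180 and 257. With 1 animal left out it gave 0 to 5. The share of all genes called is not given for these fits. The replicate block changed no other call.

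The transfer RNA share, cKO minus WT, kept its sign but moved to −0.114 (LV) and −0.145 (RV) percentage points of the listed TPM, and to −0.206 and −0.196 points of the mt- TPM, since TPM divides by an effective length of about 8 bases. The log2 ratio of mt-Nd6 to mt-Cytb was 0.209 in the LV, and that of mt-Nd6 to mt-Co1 in the RV ran between −0.26 and 0.058 with a library left out. Signs turned for split genes: mt-Co3 in cKO against WT, LV (0.13 with plain library size, 0.15 with limma); mt-Co2 in 3E13 against cKO, LV (−0.19 and −0.29) and RV (−0.21 and −0.44); mt-Co3 in 3E13 against cKO, RV (−0.085 and −0.33) and, with copies added, LV (0.78); mt-Co2 in 6E13 against cKO, LV, with copies added (0.97); and mt-Tv in 3E13 against cKO, LV (0.10 with limma). With a library left out mt-Co2 ran between −0.16 and 0.33 (3E13, LV), −0.65 and 0.15 (6E13, LV) and −0.58 and 0.76 (3E13, RV), mt-Co3 between −0.030 and 0.73 (3E13, RV), and mt-Tv between −0.95 and 0.027 (3E13, LV) and −0.24 and 1.27 (6E13, LV).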
